A study of Mus musculus with 10 samples.

Results

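Gcgr, the gene for the liver's glucagon receptor, lies close to the end of mouse chromosome 11, and the genes on either side of it were followed here in livers with and without that receptor. The members were chosen by position, and some genes of the stretch were then left out by name. They are the gene names whose array probe lay on chromosome 11 from coordinate 115647973, 5 Mb (megabases) below the Gcgr probe, to the last probe of the chromosome, which ends at 122077899. Gcgr itself, Fasn, Socs3, Birc5, Tk1 and the mitochondrial carriers named Slc25a were left out. Of 275 probes in the stretch, 267 remained, and they gave 182 members out of the array's 27962 gene names, with 129 below Gcgr and 53 above it. Coordinates are those of the array files, whose header names the build mm7, and no gene annotation of that build was used here, so exons and introns are not assigned.

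RNA from 10 mouse livers was hybridised on 2-colour Agilent arrays, with liver RNA in Cy5 and a pooled mouse reference RNA in Cy3 on every array. The wild-type group (WT, genotype wt/wt) held 5 livers from 3 males and 2 females, and the knockout group (KO) held 5 livers from 2 males and 3 females lacking Gcgr. The labels give no age, diet, strain or breeding history for either group, and do not say which part of Gcgr was removed or in which cells. Each value below is a log2 ratio of liver over reference. It can be compared between livers for the same probe, and it is not a level that can be set against another gene's.

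When a gene is altered in embryonic stem cells and the mice are then crossed to another strain, the chromosome on either side of the altered gene commonly stays that of the stem cells' strain. Genes there can then differ in sequence between mutant and control mice, which can alter expression or the match between a transcript and its array probe. A removed piece of DNA can also hold regulatory or overlapping sequence of the gene next to it. Glucagon acts on hepatocytes through Gcgr and cyclic AMP, which activates the transcription factor CREB, so neighbours can also respond to the hormone as genes elsewhere do. These routes cannot be told apart from differences in RNA alone.

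Gcgr was 7.99 ± 0.16 (SD, n = 5) in WT and 0.32 ± 0.04 (SD, n = 5) in KO livers, a 202-fold difference, and every liver matched its genotype label. The libraries differed in brightness by slide. Median net Cy5 signal was 112 to 134 on the 6 arrays of slides 1 and 2 and 58.7 to 78.9 on the 4 arrays of slides 3 and 4, which held 3 of the WT and 1 of the KO livers. Any 2 livers of a group correlated across probes at 0.956 to 0.995. Among marker lists for the liver's cell types, 2 of 6 endothelial markers (Pecam1 and Lyve1) rose and 2 of 8 hepatocyte markers (Ass1 and Tat) fell in KO livers. The mean over the endothelial list was 3.06 to 3.59 in WT and 3.72 to 4.003 in KO livers, and that over the hepatocyte list was 6.74 to 7.34 and 6.73 to 6.89. No marker of Kupffer, stellate, bile duct, red blood, fat or pancreatic cells, of lymphocytes or of neutrophils passed, yet 2 of these lists stood high in single KO livers. The mean over the fat cell markers tested, Cfd and Plin1, was 3.64 and 2.68 in KO livers 1 and 5, the KO males, against -0.11 to 0.11 in the other KO livers and -0.06 to 0.80 in WT livers. That over the neutrophil markers tested, S100a8 and S100a9, was 2.86 in KO liver 5, 0.34 to 1.17 in the other KO livers and -0.09 to 0.65 in WT livers. The Kupffer list, at 3.94 to 4.91 in WT and 4.30 to 5.08 in KO livers, overlapped between groups. The part of these shifts in the differences below was not tested, and in whole liver fewer cells of a type cannot be told apart from less RNA per cell.

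Of the 182 members, 154 were measured well above background in at least 4 livers and were tested, and 28 were not. Of those 28, 14 were above background in none of the livers. They included the ciliary transcription factor Foxj1, the neuronal pentraxin Nptx1, the photoreceptor bundling protein Fscn2 and the sialyltransferase St6galnac1. Pycr1, which makes proline, was above background in 3 livers and was not tested. No fold is given for these genes.

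The share of genes that differed by genotype was close to that of the whole table in this flank. With genotype and sex in 1 limma model over 19047 gene names, 9 of the 154 tested members passed an adjusted p of 0.05, which is 5.84%, against a background of 6.06% over all genes. The share was 6.26% of 1357 genes on the rest of chromosome 11 and 6.07% of 17170 genes on the other chromosomes. Among 20 chromosomes it ran from 4.26% to 7.93%. Galk1, Tmc6 and Lgals3bp rose, 3 members or 1.95%, against 2.91% of all genes. Trim65, Cyth1, Cbx2, Mcrip1, Aspscr1 and Dcxr fell, 6 members or 3.9%, against 3.15%. At an unadjusted p under 0.05 there were 29 members (18.8%), against 20.9% of all genes.

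**Figure D1:**
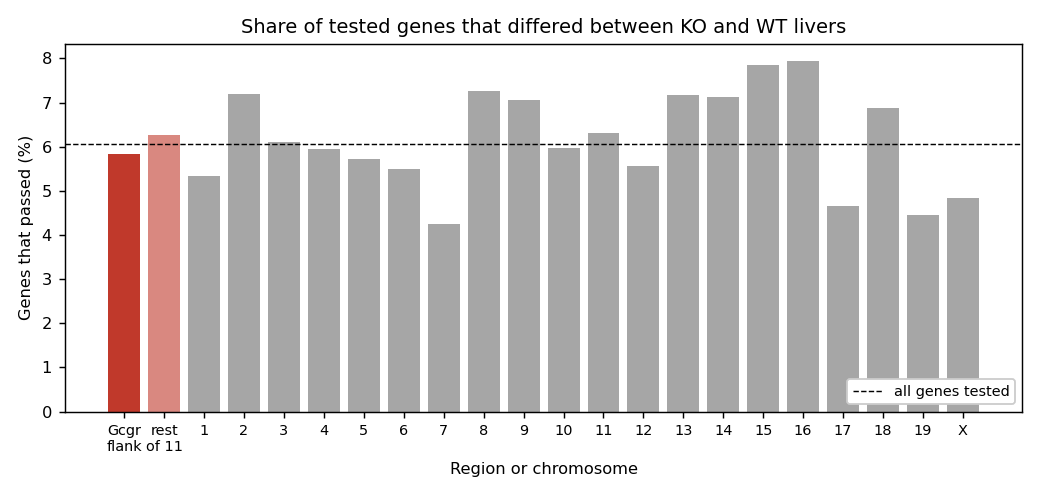
Bars give the percent of tested genes that passed (limma adjusted p under 0.05) among the 154 flanking members, on the rest of chromosome 11 and on each chromosome, and the dashed line gives all genes. The flank, at 5.84%, sits just under the line at 6.06%, and the bar for chromosome 11 includes the flank.

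The differences in the flank were also close in size to those of the whole table. The median difference between KO and WT livers was -0.01 over members and -0.0026 over all genes, and the median size regardless of sign was 0.0952 and 0.100. Member differences ran from -0.72 to 0.70. None of the 154 reached 2-fold, as 140 of 19047 genes did in the whole table. Members that passed and also changed by at least 1.5-fold numbered 3 (1.95%), namely Cyth1, Dcxr and Galk1, against 2.01% of all genes. In 7 members (4.55%) the WT and KO livers did not overlap, against 6.08% of all genes. These were Trim65, Cyth1, Lgals3bp, Mcrip1 and Dcxr, which passed, and Rptor and Lrrc45, which did not.

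In the fit with genotype and sex, the share that passed was not higher close to Gcgr than far from it. Within 1 Mb on either side, 3 of 66 members passed (4.55%), and beyond that distance 6 of 88 (6.82%). Within 100 kb 1 of 17 passed (5.88%). Going down the chromosome in steps of 1 Mb, the counts were 0 of 25, 1 of 11, 3 of 18, 0 of 14 and 2 of 37. Above Gcgr, 3 of 41 passed in the first 1 Mb and 0 of 8 from there to the chromosome end. The step of 2 to 3 Mb below Gcgr held Tmc6, Cyth1 and Lgals3bp and had a median size of difference of 0.155, the largest of the 7 steps. Over the rest of chromosome 11, the share in 23 windows of 5 Mb ran from 0% to 13.2%, and 10 windows lay above the 5.84% of the flank. The count within 1 Mb fell to 1 (1.52%) without KO liver 1, 4 or 5, against 3.2%, 3.54% and 5.22% of all genes. With replicate number as a block, the share within 1 Mb was 3.03%, above the 1.3% of all members. It was also above that of all members without WT liver 3 and without both KO males (3.03% against 2.6% in each). In the other settings it was equal or lower.

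**Figure D2:**
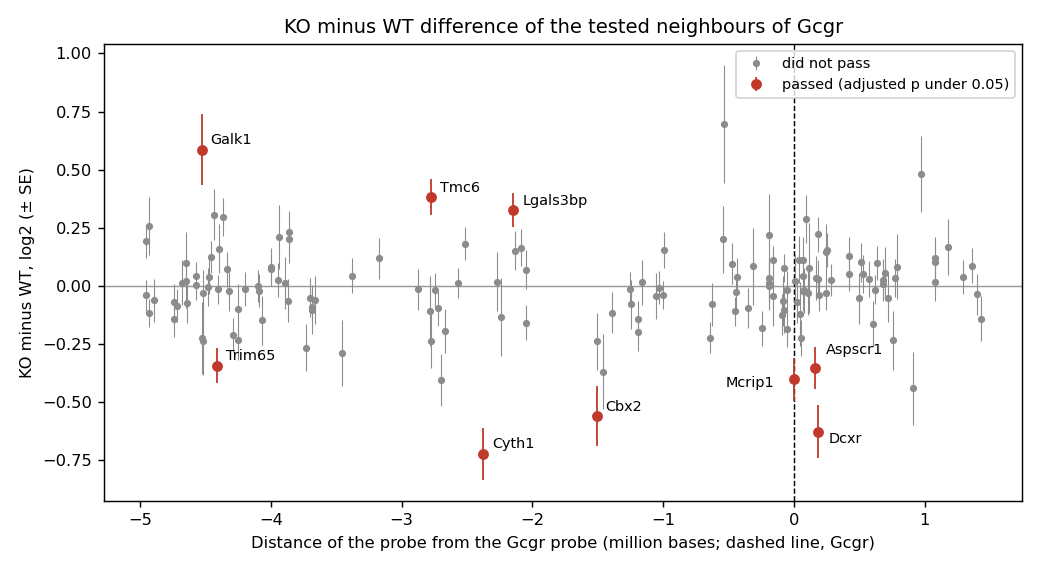
Each point is 1 of 154 tested members, with its distance from the Gcgr probe in Mb (negative below Gcgr) against its KO minus WT difference in log2, with the standard error. The 9 members that passed, in red, lie between -4.53 and 0.187 Mb, and grey points on both sides of the dashed line scatter about 0.

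At the edge of the stretch, the 3 genes just outside were Nt5c (-0.03), Jpt1 (-0.07) and Sumo2 (-0.04), and the 3 just inside were Nup85 (-0.04), Gga3 (0.19) and Mrps7 (-0.12). None of the 6 passed.

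Immediately next to Gcgr, 1 of the 12 nearest measured members changed, beside 6.06% of all genes. Genes left out by name, the Slc25a carriers among them, are not members and so are not in this count, however close they lie. Distances are given in kb (kilobases) from the Gcgr probe, negative below it. Below Gcgr the nearest were Mrpl12, a protein of the mitochondrial ribosome, at -50.5 kb, and Hgs, which sorts receptors for lysosomal breakdown, at -55.4 kb. Mrpl12 differed by -0.02 (SE 0.0853) and Hgs by -0.18 (SE 0.0791, adjusted p = 0.211). Next came Arl16 (0.08), Ccdc137 (-0.10), Oxld1 (-0.07) and Pde6g (-0.12), a subunit of the photoreceptor phosphodiesterase, with adjusted p from 0.477 to 0.794. Arl16 was above background in 2 WT and all 5 KO livers. Above Gcgr, after Mcrip1 at 4.4 kb, came Ppp1r27 (0.02) and P4hb (-0.07), the disulfide isomerase that is also a subunit of collagen prolyl hydroxylase. Arhgdia, which holds small GTPases inactive, differed by 0.11, the transcript AK048677 by -0.12 and Alyref, an mRNA export adaptor, by -0.22 (adjusted p = 0.125). Alyref passed once slide was a block, at -0.33 (adjusted p = 0.0298).

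Promoters are shown for Mcrip1, the nearest measured member and one that fell, and for Dcxr and Cyth1, the members with the largest falls. They are the 250 bases before the start of transcription in RefSeq (assembly GRCm38.p6, a newer build than that of the probes), on the gene's own strand. Where RefSeq lists several starts the farthest upstream was taken. Capitals mark any match, on either strand, to TGACG (the core of the site bound by CREB), CACGTG (the E-box) or CCAAT (the CCAAT box). The last 2 motifs were picked after reading these promoters.
Mcrip1 chr11:120549728-120549977 (minus strand): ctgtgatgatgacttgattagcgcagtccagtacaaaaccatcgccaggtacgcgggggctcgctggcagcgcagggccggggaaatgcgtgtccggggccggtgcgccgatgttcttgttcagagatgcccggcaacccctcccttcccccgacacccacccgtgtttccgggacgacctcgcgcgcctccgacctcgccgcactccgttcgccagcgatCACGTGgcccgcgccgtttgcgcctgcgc
Dcxr chr11:120727285-120727534 (minus strand): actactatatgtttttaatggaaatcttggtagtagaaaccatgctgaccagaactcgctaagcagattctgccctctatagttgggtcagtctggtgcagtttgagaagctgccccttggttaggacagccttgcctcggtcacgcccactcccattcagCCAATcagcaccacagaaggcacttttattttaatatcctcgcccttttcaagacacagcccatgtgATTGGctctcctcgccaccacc
Cyth1 chr11:118248559-118248808 (minus strand): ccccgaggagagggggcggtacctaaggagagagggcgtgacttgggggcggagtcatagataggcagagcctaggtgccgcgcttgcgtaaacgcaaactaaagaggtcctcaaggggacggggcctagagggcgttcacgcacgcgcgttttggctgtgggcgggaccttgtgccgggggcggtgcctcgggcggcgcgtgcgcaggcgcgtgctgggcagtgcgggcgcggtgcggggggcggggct
The 3 windows differ in base composition. G and C make up 67.6% of the Mcrip1 window, 48.8% of the Dcxr window and 70.4% of the Cyth1 window. Mcrip1 has 1 CACGTG, Dcxr has 2 CCAAT matches, and none of the letters searched occur in the Cyth1 window. Windows were used for 7 of the 9 members that passed (not Trim65 and Cbx2) and for 99 of those tested. TGACG was in 0 of the 7, in 25.3% of the 99 and in 17.8% of 27025 promoters of the same length. CACGTG was in 3 of the 7 (Mcrip1, Aspscr1 and Galk1), in 12.1% of the 99 and in 6.04% of all. CCAAT was in 1 of the 7 (Dcxr), in 35.4% of the 99 and in 34.5% of all. Mcrip1 and Dcxr, counted here, were among the promoters read before CACGTG and CCAAT were picked, so the counts test neither motif. The counts are matches of letters, with no binding measured.

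Mcrip1 (BC003940 in the files, 120652352 to 120652411), a protein that binds the CtBP corepressor, was the nearest measured member and was lower in every KO liver. The log2 ratios of WT livers 1 to 5 were -1.11, -1.13, -1.09, -1.04 and -0.88, and those of KO livers 1 to 5 were -1.48, -1.33, -1.20, -1.38 and -1.73. The groups did not overlap, although WT liver 2 and KO liver 3 lay close together. The mean went from -1.05 ± 0.10 to -1.42 ± 0.20 (SD, n = 5 each). It fell by 0.40 on the log2 scale (SE 0.0921, limma adjusted p = 0.0271), or 1.32-fold. The difference was -0.29 within slide 1, which held 2 WT males and a KO male and female, and -0.66 within slide 3, which held 2 WT females and 1 KO male.

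Metabolic enzymes in the flank gave 1 rise and 1 fall among 12 tested (16.7% passed, against 6.06% of all genes). The role lists used from here on are short. Their shares rest on at most 2 members each and were not tested. Dcxr (120835188 to 120835328), the dicarbonyl and L-xylulose reductase of the glucuronic acid pathway, lay 187 kb above Gcgr. In WT livers 1 to 5 it was 2.87, 2.77, 3.0995, 2.73 and 3.19, and in KO livers 2.40, 2.28, 2.54, 2.18 and 2.14. Every KO liver was below every WT liver. The mean went from 2.93 ± 0.20 to 2.31 ± 0.17 (SD, n = 5 each), a fall of 1.54-fold (log2 -0.63, SE 0.114, limma adjusted p = 0.00891). It was -0.48 within slide 1 and -0.78 within slide 3. Of its other 2 probes, one fell by 0.57 (adjusted p = 0.0115 in a fit over 26933 probes) and the other differed by -0.17 (adjusted p = 0.297).

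Galk1 (116117855 to 116117914), the kinase that starts galactose breakdown, lay at -4530 kb, close to the far edge. Its log2 ratios were -0.51, -0.46, -0.35, -0.72 and 0.24 in the WT livers and 0.38, -0.05, 0.18, 0.31 and 0.12 in the KO livers. The groups overlapped through WT liver 5, which was higher than 3 of the KO livers, and the other WT livers were below all KO livers. The mean went from -0.36 ± 0.36 to 0.19 ± 0.17, a rise of 1.502-fold (log2 0.59, SE 0.151, limma adjusted p = 0.0434). It was 0.65 within slide 1 and 0.65 within slide 3. Leaving out any 1 of 8 livers ended this call (highest adjusted p 0.122), and it was kept without KO liver 5 or WT liver 5.

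Of the other enzymes, Afmid, which acts on formylkynurenine in tryptophan breakdown, differed by -0.40 (SE 0.110, adjusted p = 0.0543). Its WT livers were 3.47 to 3.805 with a median of 3.67, and its KO livers 2.88 to 3.49 with a median of 3.27. The groups overlapped by 1 KO liver, number 2, which was above the lowest WT liver. Fn3k, which removes fructosamine from glycated proteins, differed by -0.44 (SE 0.157, adjusted p = 0.13). Pcyt2, an enzyme of phosphatidylethanolamine synthesis 71.2 kb above Gcgr, differed by 0.11 (adjusted p = 0.575). The median over the 12 enzymes was -0.02.

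Proteins of membrane traffic gave 2 falls among 11 tested (18.2% passed, against 6.06% of all genes). Cyth1 (Pscd1 in the files, 118273420 to 118273479), cytohesin 1, an exchange factor for ARF GTPases, had the largest fall in the flank. WT livers 1 to 5 were at 1.24, 1.20, 1.32, 1.23 and 0.84, and KO livers at 0.48, 0.26, 0.36, 0.35 and 0.72. WT liver 5 was the lowest of its group and KO liver 5 the highest of its own, and the groups still did not overlap. The mean went from 1.17 ± 0.19 to 0.43 ± 0.18 (SD, n = 5 each), a fall of 1.65-fold (log2 -0.72, SE 0.113, limma adjusted p = 0.00398). Within slides 1 and 3 it was -0.85 and -0.56. A second Cyth1 probe was above background in 2 livers and was not tested.

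Aspscr1 (120811594 to 120812705), also called TUG, which tethers GLUT4 storage vesicles, lay 164 kb above Gcgr. Between its probe and that of Dcxr lay those of Cenpx, Lrrc45 and Rac3, none of which passed. Its WT livers were 0.59, 0.83, 0.88, 0.77 and 1.05 and its KO livers 0.46, 0.51, 0.60, 0.34 and 0.46. The groups overlapped by WT liver 1 and KO liver 3, which were nearly level. It fell by 0.35 (SE 0.0911, limma adjusted p = 0.0438), or 1.28-fold. In the fit with slide it was -0.27 and no longer passed (adjusted p = 0.13), and leaving out any 1 of 9 livers ended the call (highest adjusted p 0.129), WT liver 1 being the exception. Exoc7, of the exocyst, differed by -0.23 and Srp68, of the signal recognition particle, by -0.21, and neither passed. The list's median was -0.12.

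Among 9 lysosomal and glycan-processing proteins 1 changed (11.1%, against 6.06% of all genes). Lgals3bp (118501801 to 118501860), a secreted glycoprotein that binds galectins, was 1.48, 1.503, 1.29, 1.47 and 1.38 in WT livers and 1.601, 1.70, 1.76, 1.85 and 1.83 in KO livers. All KO livers were above all WT livers. It rose from 1.42 ± 0.09 to 1.75 ± 0.10 (SD, n = 5 each), or 1.25-fold (log2 0.33, SE 0.0749, limma adjusted p = 0.0271). Within slide 1 it was 0.16, within slide 3 0.45, and with slide as a block 0.27 (adjusted p = 0.11). The call was lost without KO liver 3, 4 or 5 or WT liver 3 (highest adjusted p 0.0955). The sialyltransferase St6galnac2 differed by 0.23, the heparan sulfatase Sgsh by -0.20 and the cytosolic glycosidase Engase by -0.16, and none passed.

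Among 20 chromatin, transcription and RNA proteins 1 passed (5%, against 6.06% of all genes). Cbx2 (119140094 to 119140153), a chromobox subunit of Polycomb repressive complex 1, was -0.93, -0.38, -0.41, -0.12 and -0.42 in WT livers and -1.14, -1.001, -0.72, -1.12 and -0.89 in KO livers. WT liver 1 lay within the KO range and the other WT livers above it. It fell by 0.56 (SE 0.130, limma adjusted p = 0.0281), or 1.48-fold. It was -0.49 with slide as a block (adjusted p = 0.0974). The call was lost without WT liver 2, 3 or 4 or KO liver 1, 2 or 4 (highest adjusted p 0.0877). Its second probe differed by 0.08 (adjusted p = 0.734), in the other direction. The chromobox gene Cbx8 beside it differed by -0.24 and did not pass (adjusted p = 0.295). The zinc finger gene Zfp750 differed by 0.48 (adjusted p = 0.111) and the small Maf protein Mafg by 0.29.

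Among 9 proteins of ubiquitin and protein turnover 1 passed (11.1%, against 6.06% of all genes). Trim65 (116231623 to 116231682), a ubiquitin ligase of the tripartite motif family, was 1.06, 1.12, 1.25, 0.93 and 1.14 in WT livers and 0.78, 0.67, 0.73, 0.68 and 0.85 in KO livers. The groups were apart. It fell by 0.34 (SE 0.0737, limma adjusted p = 0.0201), or 1.27-fold. It was -0.32 in the fit with slide (adjusted p = 0.0725), and the call was lost without KO liver 1 or 4 or WT liver 3 (highest adjusted p 0.0654). A second probe was above background in 0 livers. Trim47, another ligase of the family 16.8 kb away, differed by 0.31 (adjusted p = 0.131), and Gps1, of the COP9 signalosome, by 0.15.

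Among 6 transporters and channels 1 passed (16.7%, against 6.06% of all genes). Tmc6 (117875179 to 117875238), a transmembrane channel-like protein that pairs with Tmc8, was -0.28, -0.31, 0.12, -0.07 and -0.13 in WT livers and 0.16, 0.29, 0.51, 0.52 and 0.05 in KO livers. The groups overlapped by WT liver 3, a female, which was above KO liver 5, a male. It rose by 0.38 (SE 0.0773, limma adjusted p = 0.0153), or 1.30-fold. Within slide 1 it was 0.53 and within slide 3, where the WT livers were female and the KO liver male, 0.02. With slide as a block it passed at 0.35 (adjusted p = 0.0402), and it was lost without KO liver 1 (adjusted p 0.0575). A second Tmc6 probe differed by -0.11 (adjusted p = 0.524), in the other direction. Tmc8 was at 1.16 ± 0.08 in WT and 1.16 ± 0.12 in KO livers (log2 difference -0.02, SE 0.0753). The lactate transporter Slc16a3 had the lowest WT ratio of the flank, -3.50, and differed by 0.13.

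**Figure D3:**
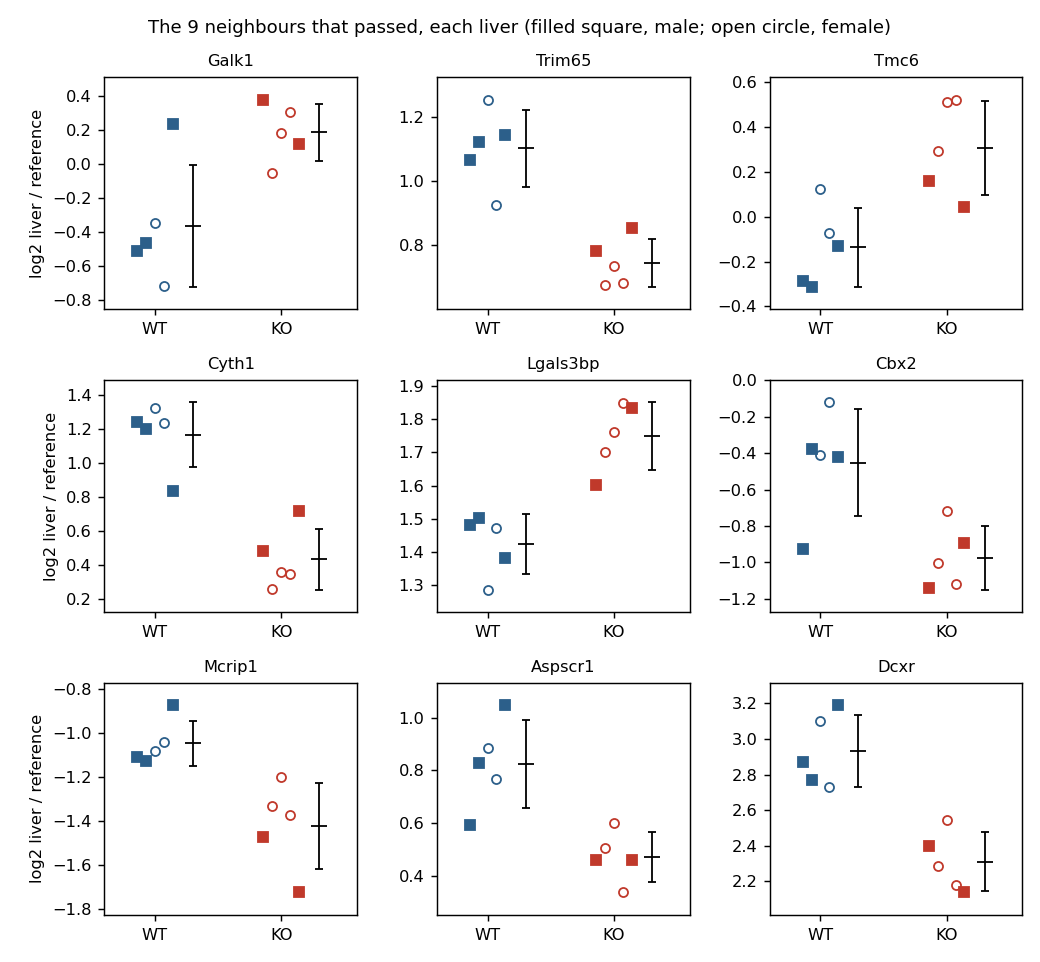
Log2 ratio of liver over reference for the 9 members that passed, in order along the chromosome, in 5 WT (blue) and 5 KO (red) livers, with the mean ± SD beside each group. WT and KO livers are apart in Trim65, Cyth1, Lgals3bp, Mcrip1 and Dcxr and overlap in Galk1, Tmc6, Cbx2 and Aspscr1.

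No member passed in 3 role lists (0%, against 6.06% of all genes). Of 13 signalling proteins, secreted factors and receptors, the kinase Aatk had the largest difference in the flank with a positive sign, 0.70, with an SE of 0.255 and an adjusted p of 0.14. Rptor (4932417H02Rik in the files), the raptor subunit of mTORC1, was -0.26 to -0.06 in WT livers and -0.47 to -0.26 in KO livers. Its groups just missed touching, the difference was -0.22 (SE 0.0678), and it did not pass (adjusted p = 0.082). Rhbdf2, an inactive rhomboid, differed by 0.21 and the secreted factor Metrnl by 0.17. Of 8 cytoskeletal, adhesion and small GTPase proteins, Itgb4 (-0.22), Baiap2 (0.20) and Septin9 (0.12) had the largest differences. The 2 proteins of the mitochondrial ribosome in that list, Mrpl12 and Mrpl38, both differed by -0.02. Lrrc45, a centrosomal linker protein in none of the lists, was -0.82 to -0.59 in WT and -0.58 to -0.36 in KO livers (difference 0.22, SE 0.0736, adjusted p = 0.106).

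With slide as a fixed block, 7 members passed (4.55%), against 6.36% of all genes. Galk1, Tmc6, Cyth1, Mcrip1 and Dcxr passed in both fits. Mxra7 (-0.43, adjusted p = 0.0208) and Alyref passed in the block fit alone. The 9 members kept their sign in all 22 alternative settings. Dcxr passed in 21 of them, Cyth1 in 20, Tmc6 in 17, Trim65 in 15, Mcrip1 in 14, Lgals3bp in 13, Galk1 in 11, Cbx2 in 10 and Aspscr1 in 4. Mcrip1 was lost without KO liver 1, 2, 4 or 5 (highest adjusted p 0.0712). The count of 9 fell to 3 (1.95%) without KO liver 1 and to 3 (1.95%) without KO liver 4. The share of all genes fell as well, to 3.2% and 3.54%. The member count was 4 (2.6%, against 3.18% of all genes) without WT liver 3. Without KO liver 5 it was 6 (3.9%, against 5.22%). Without both KO males, livers 1 and 5, which were high in fat cell markers, genotype was compared in females alone with a spread estimated from all 8 livers. Then 4 members passed (2.6%, against 4.15% of all genes), namely Cyth1 (-0.95), Tnrc6c (-0.53), 2900052L18Rik (0.53) and Lrrc45 (0.38). Of the 9, Cyth1 alone still passed, and the others kept their sign with adjusted p from 0.0596 to 0.261.

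The effect of losing Gcgr was not shown to depend on sex for any member. The interaction passed in 0 of 154 members in limma, against 6 of all genes (0.0315%). The lowest adjusted p among members was 0.195. At an unadjusted p under 0.05 there were 20 members (13%) against 12.6% of all genes, and with slide as a random block the count was again 0 members. Between females (3 KO, 2 WT) 3 members passed (1.95%, against 4.49% of all genes), namely Cyth1 (-0.95), Tnrc6c (-0.53) and Lrrc45 (0.38). Between males (2 KO, 3 WT) 2 members passed (1.3%, against 2.39% of all genes), namely Trim47 (0.55) and Mcrip1 (-0.56). Both comparisons came from the interaction fit over all 10 livers, so the spread was estimated from both sexes.

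More members passed for sex than for genotype. In the same model 17 of 154 members differed between female and male livers (11%), against 11.6% of all genes. Of these, 11 were lower in females (7.14%, against 6.57% of all genes) and 6 were higher (3.9%, against 5% of all genes). Tmc6 was the 1 member that passed for both sex (0.30, SE 0.0773, adjusted p = 0.0264) and genotype. With slide as a block 15 members differed by sex, 12 of them shared, against 11.2% of all genes. Leaving out 1 liver gave 9 to 19 members (5.84% to 12.3%), with 9 without WT liver 2 or KO liver 1. The count was 10 without WT liver 1 or 3 or KO liver 4, and 11 without KO liver 3. Shares of all genes in these fits are not given here, so a swing particular to the flank is not shown.

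The largest sex difference was in Aatk, which lies -532 kb from Gcgr. Its males were at 2.25, 3.16 and 1.67 in WT and 3.61 and 2.58 in KO, and its females at 0.91 and 0.78 in WT and 1.42, 1.49 and 1.63 in KO. Every male was above every female. The difference, female minus male, was -1.55 (SE 0.255, adjusted p = 0.00221). Itgb4, integrin beta 4 of hemidesmosomes, was 0.69, 0.92, 0.14, 0.35 and 0.52 in males and -0.50, -1.04, -0.95, -0.99 and -1.29 in females. The sexes were apart (difference -1.43, SE 0.154, adjusted p = 0.000137). Its probe ends 508 bases from the start of the Galk1 probe, which lies on the opposite strand, and Galk1 did not differ by sex (-0.19, adjusted p = 0.481).

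Also lower in females were the unnamed transcript NAP049888-1 (-1.21), Mxra7 (-0.82), Zfp750 (-0.59) and the scaffold protein Card14 (-0.47, SE 0.0792, adjusted p = 0.00253). Smaller differences were in the lysosomal glucosidase Gaa (-0.35), the DNA repair protein Cenpx (-0.34), the melatonin enzyme Aanat (-0.27) and the ubiquitin enzyme Ube2o (-0.23). Higher in females were the transcript ENSMUST00000050697 (0.79, SE 0.102) and Notum (0.77, SE 0.195, adjusted p = 0.0251), an enzyme that removes the lipid from Wnt proteins. Notum was 1.40 to 2.37 in males and 2.26 to 3.08 in females, overlapping by KO liver 4, a female, and KO liver 5, a male. St6galnac2 (0.35), the splicing factor Srsf2 (0.25) and Ubald2 (0.24) were higher too.

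**Figure D4:**
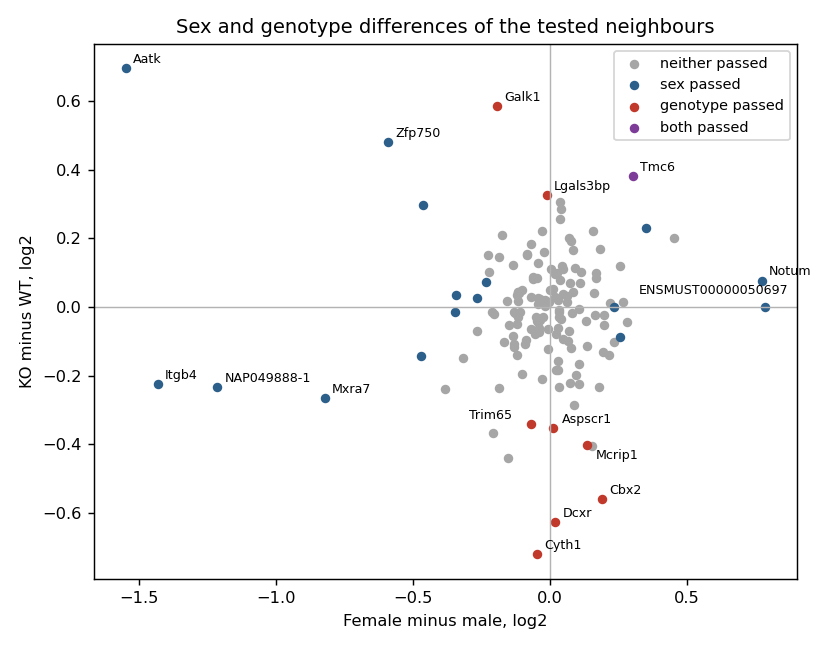
Each point is 1 of 154 tested members, with its female minus male difference against its KO minus WT difference, both in log2 from the same model. The 17 members that passed for sex spread along the horizontal axis from -1.55 to 0.79, the 9 that passed for genotype along the vertical axis from -0.72 to 0.59, and Tmc6 is in both sets.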

How the data were processed

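Members and lists were chosen with earlier results of these data known. Arrays were read with Agilent Feature Extraction, version 10.7 in the submitters' processing notes and 10.7.3.1 in the headers. The deposited spot signals are intensity values on a linear scale, and the deposited LogRatio is log10 of Cy5 over Cy3, both per the file headers. Values in the authors' series table are log2 ratios, found by setting each column against its array (correlation 0.9994 to 0.9996, column medians 0.00776 to 0.023). Its direction and scale matched, and its background correction and normalisation are not given in the sources used here.

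Each array had 45018 spots, 1639 of them controls. Spots with outlier flags (169 to 291 per array) were removed, mean signals were corrected by normexp (offset 50) and log2 ratios normalised by loess within arrays. Of a gene name's probes, that of highest mean processed Cy5 signal was used, and kept where well above background in at least 4 of 10 livers. Current symbols came from RefSeq (GRCm38.p6): 113 members matched by accession, 25 by symbol, 14 by synonym and 30 not at all, which keep the files' name. The model was genotype plus sex in limma 3.58.1 (R 4.3.3), with Benjamini-Hochberg adjustment over all 19047 gene names, 67 of them with a missing value and none a member. Genes past an adjusted p of 0.05 are said to pass, rise or fall. Array number limits the precision, and p-values treat each liver as 1 mouse. Slide was read from the array barcodes. Some members are counted and not reported here by name. Named members were those that passed, the 6 nearest on each side, those with the largest differences in each role list and those at the lower edge. The members named for sex, and others outside that rule (Lrrc45, Pcyt2, Mxra7, Tnrc6c, Tmc8, Cbx8), were chosen after their values were seen, and the sex comparison was added then. Alternatives changed the flags' order, background, normalisation, filter, probe, sex, slide and replicate terms and left out each liver. Leaving out both KO males was added after seeing the data.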

Additional observations from a re-analysis of the deposited data

Results flagged for a closer look

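Among the 96 groups of 5 livers formed by the 48 members named by rule, 5 held 1 liver far from the other 4, and chance gives such a gap in about 1 group in 20. For Cyth1, which fell, WT liver 5 was the lowest of its group at 0.84, with the others at 1.20 to 1.32. For Hgs, WT liver 1 was at -0.12 with the others at 0.15 to 0.20. For Pde6g, KO liver 4 was at 0.45 with the others at 0.64 to 0.71. For Rhbdf2, KO liver 5 was at 0.54 with the others at -0.29 to -0.10. For Arhgdia, KO liver 2 was at -1.18 with the others at -1.38 to -1.33. The 5 gaps came from 5 different livers. Cyth1 passed without WT liver 5 too, and none of Hgs, Pde6g, Rhbdf2 and Arhgdia passed without any 1 liver.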

How the results depend on the processing

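Across 22 alternatives the share of members that passed was 0% to 9.09%, and that of all genes 1.5% to 8.39%. The members' share was above that of all genes in 5 of the alternatives. The 9 members that passed in the model reported kept their sign in every alternative. Some named members that passed in no setting changed sign. Among them were AK048677 (-0.25 to 0.10), Ppp1r27 (-0.13 to 0.125) and Mrpl12 (-0.14 to 0.02). Counts are given for members, members within 1 Mb of Gcgr, all genes, and members that differed by sex. The sex counts stand without the share of all genes by sex in the same fit. With outlier spots removed after background correction they were 4, 1, 343 (58.6% of them higher in KO livers, against 48% in the model reported) and 6. With median centring in place of loess they were 0, 0, 285 (71.6% higher) and 5, and 17 members then had an unadjusted limma p under 0.05 (11%, against 12.6% of all genes). Median centring moved the median of all genes to 0.0665. With no sex term they were 4, 1 and 630. With slide as a random block 14 members passed (9.09%, against 8.39% of all genes). Of these, 5 lay within 1 Mb, 7.58% of the members there. Leaving out each liver in turn gave 3 to 9 members, 1 to 3 within 1 Mb, 606 to 1197 genes and 9 to 19 members by sex. With both KO males left out, a setting chosen after seeing the data, 4 members passed, 2 of them within 1 Mb, and 790 genes. The cause of these shifts was not tested. Replicate numbers did not pair the livers (correlations of deviations -0.306 to 0.251). The fit with the replicate block gave 2 members (1.3%), 2 within 1 Mb (3.03% of the members there), 312 genes (1.64%) and 2 members by sex. Members not well above background in at least 4 livers, 28 of 182, could not be judged.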
